A study of Sus scrofa with 12 samples.

Results

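The genes described here are 10 genes of the hyaluronan-rich matrix: VCAN, ACAN and NCAN (large aggregating proteoglycans), HAS1, HAS2 and HAS3 (hyaluronan synthases), HAPLN1 and HAPLN3 (link proteins), CD44 (a hyaluronan receptor) and TNFAIP6 (a hyaluronan-modifying protein). They were chosen by name, with earlier results of these data known, and all 10 were found among the 35682 genes of the count tables through a table that pairs Ensembl identifiers with pig gene symbols. Their RNA was counted in 12 libraries from the hearts of 6 pigs, 1 library of the border zone, the section next to the infarct, and 1 of the remote zone, the posterior wall, of each animal, both from the mid ventricular level. The female Yorkshire pigs, 10 to 12 weeks old, had a balloon occlusion of the left anterior descending artery for 60 min and reperfusion (ischemia-reperfusion injury, IRI), and hearts were taken on post-IRI day 42. All of them, controls included, were given tacrolimus at 0.75 mg/kg/day, mycophenolate mofetil at 500 mg/day and prednisolone at 20 mg/day from day 9, and had a left thoracotomy on day 14. In this operation the experimental animals received scaffold-free EPC-SMC vascular organoids, built from human endothelial progenitor cells and stem-cell-derived smooth muscle cells, and the controls fibrin glue. Which animal received which is not used here, so each region mixes the treatments, and levels are given per library or as a range with the median. Animals are named by their numbers in the labels.

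Hyaluronan is a long sugar polymer that synthases in the cell membrane extrude into the matrix. The large proteoglycans called lecticans bind it through their N-terminal domain, link proteins lock that bond, and the chondroitin sulfate chains on their core protein hold water. In the adult heart this matrix is sparse, and after injury fibroblasts and other cells lay it down as a provisional matrix, which cells bind through CD44 and which TNFAIP6 cross-links and reshapes.

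Total counts per library ranged from 15130210 to 30526110 for the border zone, against 20091415 to 31618680 for the remote zone. Levels are in CPM, the count scaled to the library size that TMM normalizes, times 1000000, and a count of 3, the most that a count of 0 allows, was worth 0.0883 to 0.201 CPM. A pair of border zone libraries stood apart. That of animal 3622 listed 28024 genes with a count, against 17563 as the lowest in its region, and that of animal 1022 had a summed level of 59068 CPM for 8 fibroblast markers and 8015 CPM for 7 cardiomyocyte markers, where the other 5 had 2872 to 11097 and 29123 to 48340 CPM. The tests were also run without either library. Markers of heart muscle were present in every library of both regions. In such bulk tissue, fewer cells of a type and less RNA per cell cannot be told apart.

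Per length of exon, the same 4 of the 10 genes had the highest median levels in both regions. In the remote zone the median level was 23.6 CPM per kilobase for HAPLN3, 2.81 for CD44, 1.25 for VCAN and 1.05 for TNFAIP6, and 0.102 for HAS3, the next in order. The ranges of HAPLN3, CD44 and VCAN did not overlap there, while those of VCAN and TNFAIP6 did. Below TNFAIP6 came HAS3, HAPLN1, HAS1, ACAN, HAS2 and NCAN, each overlapping its neighbour in this order. In the border zone the median was 7.52 CPM per kilobase for HAPLN3, 5.97 for CD44, 4.25 for VCAN and 2.24 for TNFAIP6, and the ranges of these neighbours overlapped. Between TNFAIP6 and HAS1, at 0.131 CPM per kilobase, the ranges were again apart.

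**Figure D1:**
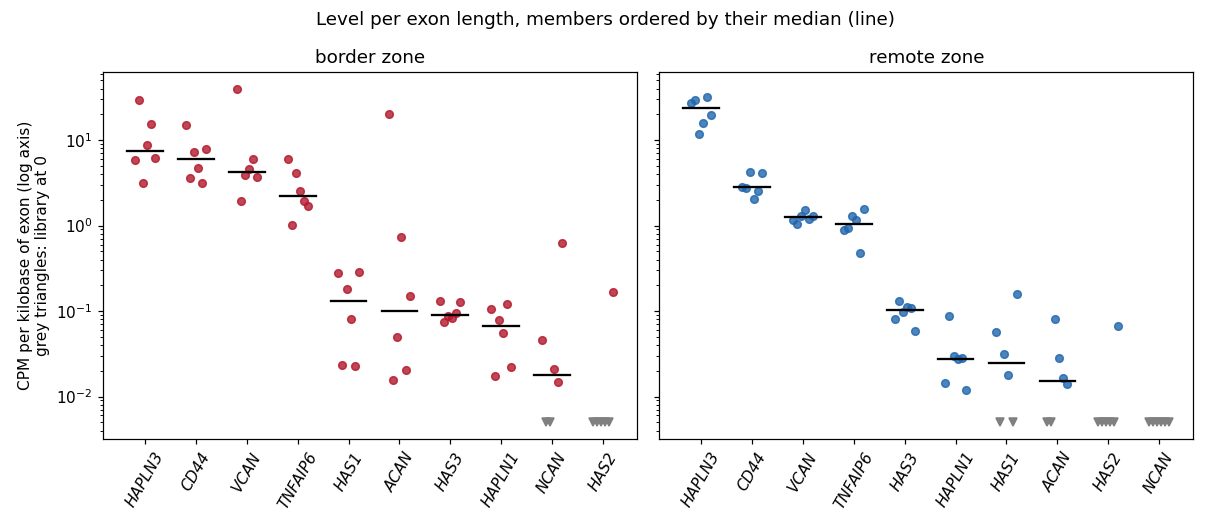
CPM per kilobase of exon (log axis) of the 10 genes in the 6 border zone libraries (left) and the 6 remote zone libraries (right), each point 1 library, the line the median, and grey triangles libraries with no count. HAPLN3, CD44, VCAN and TNFAIP6 have the highest medians in both regions, although ACAN was above 3 of them in the border zone of animal 1022, and HAPLN3 is apart from all others only in the remote zone.

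The stretch just upstream of these 4 genes is shown because they had the highest medians per length, and because VCAN, CD44 and TNFAIP6 were the tested genes whose level was higher next to the infarct in 6 of 6 animals. Each run is the 250 bases before the RefSeq transcript start in Sscrofa11.1, printed 5′ to 3′ in the direction of the gene, with capitals marking letters of a motif on either strand.
VCAN: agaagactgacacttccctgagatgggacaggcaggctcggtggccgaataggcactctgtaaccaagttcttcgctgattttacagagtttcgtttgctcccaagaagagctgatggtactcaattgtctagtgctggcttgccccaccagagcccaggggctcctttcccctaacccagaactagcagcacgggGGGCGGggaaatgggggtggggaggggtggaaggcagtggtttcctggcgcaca
CD44: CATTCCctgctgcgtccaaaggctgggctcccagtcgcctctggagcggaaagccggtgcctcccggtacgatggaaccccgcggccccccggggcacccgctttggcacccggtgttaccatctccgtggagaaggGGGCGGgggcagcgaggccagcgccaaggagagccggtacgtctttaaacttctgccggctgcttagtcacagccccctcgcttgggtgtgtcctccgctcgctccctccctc
TNFAIP6: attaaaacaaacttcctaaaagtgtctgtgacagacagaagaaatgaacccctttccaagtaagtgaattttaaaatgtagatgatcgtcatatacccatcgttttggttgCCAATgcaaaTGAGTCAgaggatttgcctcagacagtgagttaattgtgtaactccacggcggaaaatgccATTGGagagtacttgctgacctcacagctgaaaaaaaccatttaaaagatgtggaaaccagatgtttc
HAPLN3: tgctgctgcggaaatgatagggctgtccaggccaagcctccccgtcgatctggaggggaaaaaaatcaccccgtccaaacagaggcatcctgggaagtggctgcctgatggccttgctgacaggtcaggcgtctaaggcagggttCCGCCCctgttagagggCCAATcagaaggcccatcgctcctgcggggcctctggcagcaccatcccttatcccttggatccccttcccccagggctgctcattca
They lie at chr2:91699170-91699419 on the plus strand for VCAN, and on the minus strand at chr2:25884210-25884459 for CD44, chr15:881353-881602 for TNFAIP6 and chr7:54537430-54537679 for HAPLN3. For VCAN, 3 of 4 RefSeq transcripts start near this place and the other starts farther upstream. The motifs searched on both strands were the TATA box (TATAAA), the CCAAT box (CCAAT), the GC box (GGGCGG), and the sites named AP-1 (TGANTCA), TEAD (GGAATG) and STAT (TTCNNNGAA). TNFAIP6 held the AP-1 letters once, as did 5.17% of the 19531 windows of this length before pig genes, and the CCAAT letters at 2 places, against 31.8% of windows with any. The GC box letters, present in 46.2% of windows, stood once each in VCAN, CD44 and HAPLN3, and CCAAT once in HAPLN3. CD44 held the TEAD letters once (10.2% of windows). The TATA box and STAT letters, in 9.75% and 6.18% of windows, were in none of the 4, and none of the matches overlapped. Content of G and C was 57.2% for VCAN, 68.0% for CD44, 38.8% for TNFAIP6 and 60.8% for HAPLN3, against a median of 58.0% over all windows. A match of letters is a description and not a site.

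Of the 10 genes, 5 passed the filter on low counts and were tested among 13844 genes: VCAN, HAS3, HAPLN3, CD44 and TNFAIP6. By the quasi-likelihood test of edgeR, with p-values adjusted over all genes after Benjamini and Hochberg, 1 of the 5 was past an adjusted p of 0.05, VCAN, which was higher in the border zone. Over all genes tested 2.07% were called, 2.06% higher and 0.0144% lower. With the animal as a block, 0 of the 5 genes passed, where 0.296% of all genes did. At an unadjusted p under 0.05 there were 3 of the 5 without the block and 4 with it, against 24.7% and 29.4% of all genes. The DESeq2 Wald test called 3, VCAN, CD44 and TNFAIP6, where it called 10.2% of the genes it tested, 1412 of them higher and 307 lower.

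**Figure D2:**
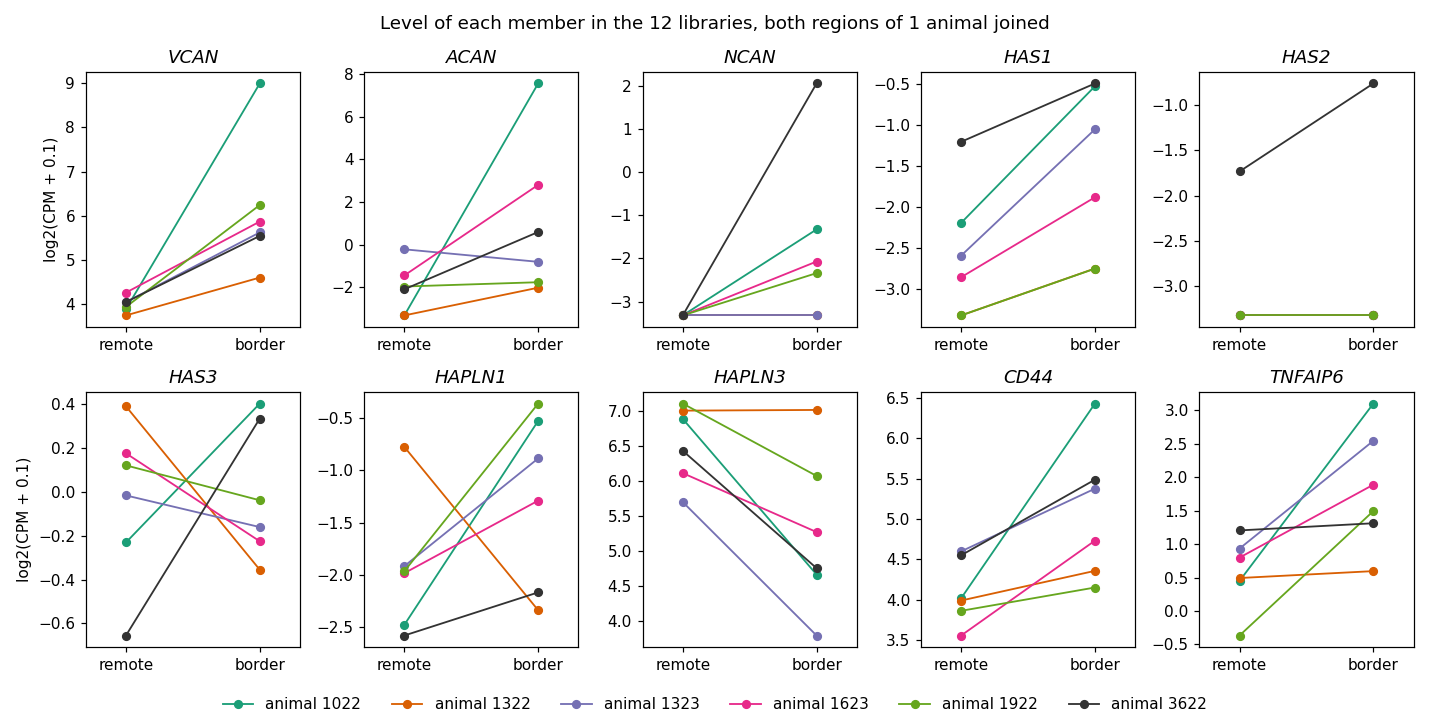
Level of each of the 10 genes as log2(CPM + 0.1) in the remote zone and border zone library of each animal, joined by a line and coloured by animal; each panel has its own vertical scale, and points of animals with equal values lie on each other (such as animals 1322 and 1922 in HAS1, and libraries at 0 in HAS2, NCAN and ACAN). VCAN, HAS1, CD44 and TNFAIP6 run upward in 6 of 6 animals, while HAPLN3 runs downward in 5.

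Of the lecticans, VCAN encodes versican, the main lectican of loose connective tissue and of the vessel wall (Sscrofa11.1 chr2:91682177-91811674, plus strand). In the border zone its level was 507.9 CPM in animal 1022, 75.7 in animal 1922, 58.4 in animal 1623, 49.3 in animal 1323, 46.6 in animal 3622 and 24.3 in animal 1322. In the remote zone it was 13.4 to 19.1 CPM, with a median of 15.9. Every border zone library was above every remote zone library, and the one of animal 1022 was far above the rest. Groups were apart in this way, border zone above, for 1.99% of all genes tested, and among the 10 genes only for VCAN. Its log2 fold change was 2.995 with a standard error of 0.655 (adjusted p = 0.0341 by edgeR), 7.97-fold. With the animal as a block it was 2.05 (standard error 0.50), and the adjusted p of 0.0803 by edgeR was past the threshold no longer. Without the border zone library of animal 1022 it was 1.67 (adjusted p = 0.00299 by edgeR), and without both libraries of that animal 1.65 (adjusted p = 0.0104), so it was lower there by more than 1 on the log2 scale and still called. Without the border zone library of animal 3622 it was 3.17 and still called (adjusted p = 0.0471 by edgeR). Without both libraries of animal 1323, 1623, 1922 or 3622 the log2 fold change was 3.09 to 3.23 and the adjusted p by edgeR 0.0932 to 0.126. Within animals the difference on the log2(CPM + 0.1) scale was 5.09 in animal 1022 and 0.85 to 2.30 in the others, higher in 6 of 6 with a mean of 2.15 ± 1.51 (SD, n = 6; exact permutation test, two-sided, exchanging the regions within animals, p = 0.03125, which no result with 6 animals can go below).

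ACAN encodes aggrecan, the lectican of cartilage (chr7:54449830-54520606, plus strand), and was too low in most libraries to be tested. In the border zone of animal 1022 it had 5698 counts, or 188.3 CPM, which was 95.4% of its summed border zone CPM. The other border zone libraries had 6.87 CPM in animal 1623, 1.41 in animal 3622, 0.471 in animal 1323, 0.194 in animal 1922 and 0.146 in animal 1322. In the remote zone the level was 0 to 0.757 CPM, with no count in animals 1022 and 1322. So a single library held almost all ACAN reads, and the groups overlapped. The border zone was higher in 5 of 6 animals, by a mean of 3.12 on the log2(CPM + 0.1) scale (two-sided exact permutation test, p = 0.09375), and by 1.57 without animal 1022. With remote zone libraries at 0, the size of this mean also depends on the 0.1 added. Per kilobase, VCAN exceeded ACAN 2.01-fold in the border zone of animal 1022 and 6.34-fold to 290-fold in the other 5. Of the 11 cartilage markers with an identifier, 2 passed the filter and 0 were called. Their summed level was 12.9 to 39.4 CPM in the border zone, highest in animal 1022, and 12.1 to 14.8 CPM in the remote zone, and the part of such cells in the ACAN level was not tested. The border zone was the higher in 6 of 6 animals for SOX5, COL2A1 and COL9A3, in 5 for SOX9 and MATN3, in 4 for CNMD and EPYC, in 2 for COL9A1 and MATN1, in 1 for COL11A2 and in 0 for SOX6, all named after their values were seen. SOX6, which other tissues express as well and which gave most of the remote zone sum, had a log2 fold change of -0.47 (adjusted p = 0.186 by edgeR). SOX9 was at 1.89 (adjusted p = 0.0661 by edgeR), and at 1.10 without the border zone library of animal 1022 (adjusted p = 0.108 by edgeR). COL2A1, the main cartilage collagen, was at 0.0487 to 5.20 CPM in the border zone, at most 0.991 CPM outside animal 3622, and 0 to 0.114 CPM in the remote zone. COL9A3, another cartilage collagen gene, was at 0.146 to 13.1 CPM in the border zone, at most 2.99 CPM outside animal 1022, and 0 to 0.305 CPM in the remote zone.

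NCAN encodes neurocan, a lectican of the nervous system (chr2:58638808-58669757, minus strand). The border zone library of animal 3622 held 66 counts, with 9 in animal 1022, 4 in animal 1623, 2 in animal 1922 and none in animals 1322 and 1323. No remote zone library had a count. Pooled over libraries, and set against 3 counts over the whole remote zone group, its border zone level was 24.5-fold higher. It was 5.08-fold higher without the border zone library of animal 3622, the one that lists far more genes than the others. These ratios take the pooled border zone counts, 81 and 15, as exact, so they allow for counting error in the remote zone only. The difference was above 0 in 4 animals and 0 in the other 2 (exact permutation test, p = 0.125).

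The synthases were low in both regions, HAS1 and HAS2 near the limit of detection. HAS1 (chr6:58303274-58313486, plus strand) had 18, 13, 10, 5, 1 and 1 counts in the border zone of animals 1022, 1323, 3622, 1623, 1322 and 1922, and 0 to 5 counts in the remote zone. The border zone level was the higher in 6 of 6 animals, by a mean of 1.01 ± 0.49 (SD, n = 6) on the log2(CPM + 0.1) scale (two-sided exact permutation test, p = 0.03125). With a remote zone median of 0.052 CPM, under the 0.1 added, the size of this mean depends on that choice. The groups overlapped, and in animals 1322 and 1922 the difference was 1 count against 0. Of all genes tested, 11.7% were higher in 6 of 6 animals. HAS2 (chr4:17583154-17613524, plus strand), the synthase of the embryonic heart cushions, had no count in 10 libraries. It had 8 counts in the border zone and 3 in the remote zone of animal 3622, so it was not detectable at this depth in the other animals. HAS3 (chr6:17844974-17870331, minus strand) had 14 to 37 counts in the border zone, or 0.682 to 1.22 CPM, and 8 to 27 counts in the remote zone, or 0.535 to 1.21 CPM. The groups overlapped over almost their whole range. Its log2 fold change was 0.02 with a standard error of 0.30 (adjusted p = 0.981 by edgeR), and its sign changed under several alternatives. RefSeq places 282 exonic bases of HAS3 within exons of TANGO6, and in these nondirectional libraries reads from that stretch cannot be told apart by strand.

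As a share of the level of all 3 synthases per kilobase, HAS1 had a median of 49.9% in the border zone (19.5% to 68.0%) and 19.2% in the remote zone (0% to 55.8%). For HAS3 these medians were 41.2% (21.7% to 80.5%) and 80.8% (20.4% to 100%). These shares rest on 8 to 37 counts of HAS3 and 0 to 18 of HAS1 per library, and without the length correction the medians were 22.8% and 5.23% for HAS1 and 74.5% and 94.8% for HAS3, border zone first.

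HAPLN3 (chr7:54519790-54537429, minus strand), a link protein gene that many tissues express, had the highest median of the 10 per length in both regions, and in the border zone it was above CD44, the next, in 3 of 6 libraries. Its remote zone level was 138.0 CPM in animal 1922, 128.7 in animal 1322, 118.5 in animal 1022, 86.4 in animal 3622, 69.2 in animal 1623 and 51.9 in animal 1323. In the border zone it was 67.3, 129.5, 25.2, 26.9, 38.5 and 13.7 CPM in the same order of animals. It was lower in the border zone of 5 of 6 animals and level in animal 1322, and the groups overlapped. The log2 fold change was -0.98 with a standard error of 0.46 (adjusted p = 0.208 by edgeR), and with the animal as a block -1.29 with a standard error of 0.29 (adjusted p = 0.0773). The mean within-animal difference was -1.28 ± 0.82 (SD, n = 6; two-sided exact permutation test, p = 0.0625). RefSeq places the last 817 exonic bases of HAPLN3 and of ACAN on each other, on opposite strands, so reads from that stretch could come from either gene. Where ACAN was highest, in the border zone of animal 1022, HAPLN3 was at 25.2 CPM. The cardiomyocyte markers, 7 with an identifier and 7 tested, had a median log2 fold change of -0.51 with 0 called, and their summed level was lower in the border zone of 6 of 6 animals (8015 to 48340 CPM, against 37271 to 66227). Of the border zone libraries, that of animal 1322 had both the highest HAPLN3 and the highest cardiomyocyte sum. The lowest sum was in animal 1022 (8015 CPM), while the lowest HAPLN3 was in animal 1323 (13.7 CPM), so the orders differed. The part of this list in the HAPLN3 values was not tested.

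HAPLN1, the cartilage link protein (chr2:91857495-91935485, minus strand), lies 45820 bases from VCAN. Border zone libraries had 2 to 18 counts and remote zone libraries 1 to 10, or 0.0974 to 0.680 and 0.0669 to 0.484 CPM. The border zone was the higher in 5 of 6 animals, with animal 1322 the other way, by a mean of 0.69 on the log2(CPM + 0.1) scale (two-sided exact permutation test, p = 0.21875). Without animal 1022 the mean was 0.44, and without animal 1322 1.14. These values are close to the level of 3 counts.

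**Figure D3:**
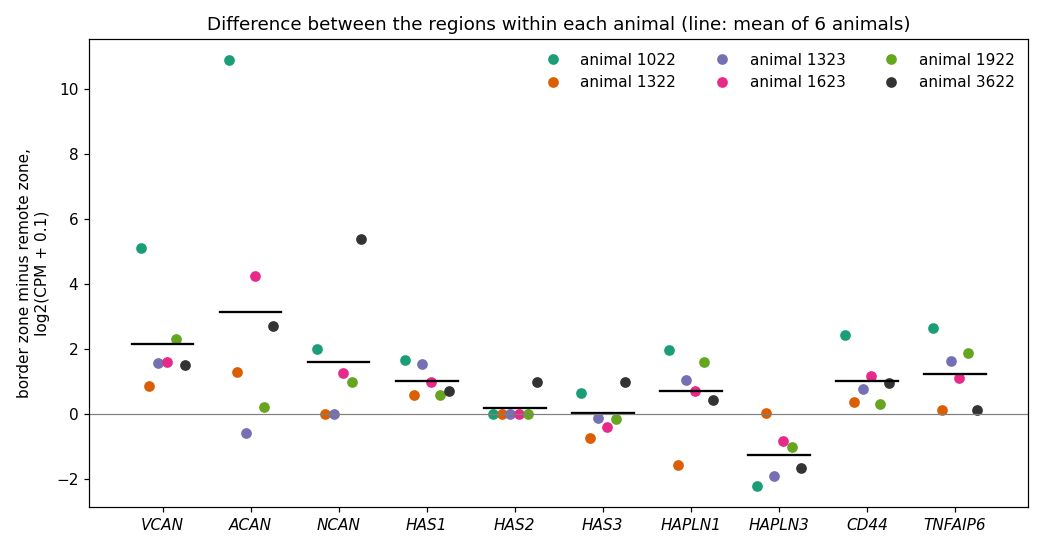
Border zone minus remote zone on the log2(CPM + 0.1) scale for each of the 10 genes, each point 1 animal and the line the mean of 6. Animal 1022 is the highest point for VCAN (5.09), ACAN (10.88), HAS1, HAPLN1, CD44 and TNFAIP6 and the lowest for HAPLN3 (-2.23).

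CD44 encodes the main cell-surface receptor of hyaluronan (chr2:25788699-25884209, minus strand). Its border zone level was 86.0 CPM in animal 1022, 44.7 in animal 3622, 41.4 in animal 1323, 26.5 in animal 1623, 20.4 in animal 1322 and 17.7 in animal 1922. In the remote zone it was 16.1, 23.3, 24.1, 11.7, 15.8 and 14.5 CPM in the same order. Each animal had more in its border zone, while the groups overlapped, since 2 remote zone libraries exceeded the lowest border zone ones. The log2 fold change was 1.17 with a standard error of 0.35 (adjusted p = 0.0848 by edgeR, 0.0837 with the block), and 0.77 without the border zone library of animal 1022 (adjusted p = 0.152 by edgeR). The mean within-animal difference was 0.99 ± 0.77 (SD, n = 6; two-sided exact permutation test, p = 0.03125).

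TNFAIP6, also named TSG-6, encodes a secreted protein that inflammation induces and that transfers heavy chains onto hyaluronan (chr15:862013-881352, minus strand). Its border zone level was 8.49 CPM in animal 1022, 5.74 in animal 1323, 3.61 in animal 1623, 2.72 in animal 1922, 2.38 in animal 3622 and 1.41 in animal 1322. In the remote zone it was 1.27, 1.81, 1.64, 0.676, 2.21 and 1.31 CPM in the same order. The border zone was the higher in 6 of 6 animals, but in animals 1322 and 3622 by only 0.10 and 0.11 on the log2(CPM + 0.1) scale. The log2 fold change was 1.46 with a standard error of 0.42 (adjusted p = 0.0772 by edgeR, 0.0915 with the block), and 1.10 without the border zone library of animal 1022 (adjusted p = 0.146 by edgeR). The mean within-animal difference was 1.24 ± 1.01 (SD, n = 6; two-sided exact permutation test, p = 0.03125).

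Across the 6 border zone libraries, the one of animal 1022 had the highest level for 5 of the 10 genes (VCAN, ACAN, HAS3, CD44 and TNFAIP6), as it did for 32.6% of all genes tested. The 8 fibroblast markers were all tested, with none at 0 in any library. Of them 6 were called higher, 1 with the block, with a median log2 fold change of 2.48 against 0.04 over all genes tested. Their summed level was 2872 to 59068 CPM in the border zone and 999 to 2537 CPM in the remote zone, higher in 6 of 6 animals. In the border zone, VCAN and this sum put the animals in 1 order, from 1022 and 1922 down to 3622 and 1322, apart from 1323 and 1623, which changed places. The 7 tested macrophage markers had a median of 1.63 with 0 called and 7 at an unadjusted p under 0.05 by edgeR. Their list had a summed level of 1174 CPM in the border zone of animal 1022, 95.7 to 267 CPM in the other 5 and 89.9 to 180 CPM in the remote zone, higher in 5 of 6 animals. MARCO, the eighth, was at 0 in 8 libraries. The 8 smooth muscle and pericyte markers, all tested, had a median of 1.36 with 0 called and 6 at an unadjusted p under 0.05 by edgeR. RGS5 and KCNJ8 of this list were at -0.22 and -0.32, and the log2 fold changes of the other 6 were above 0. Their summed level was 3003 CPM in the border zone of animal 1022, 571 to 1008 CPM in the other 5 and 349 to 667 CPM in the remote zone, higher in 5 of 6 animals. The endothelial, epicardial, lymphocyte and neutrophil lists had 0 called, with medians of 0.16, 1.14, 0.59 and 2.39 over 8, 2, 5 and 1 tested genes, and the sum of each was highest in the border zone of animal 1022 among the border zone libraries. Without that library the medians were 1.73 for the fibroblast list, 0.63 for the macrophage list and 0.85 for the smooth muscle and pericyte list, with 6, 0 and 1 called by edgeR. For the endothelial, epicardial, lymphocyte and neutrophil lists they were then 0.08, 0.72, 0.38 and 1.36, with 0 called. The part of these cell types in the VCAN, CD44 and TNFAIP6 values was not tested.

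**Figure D4:**
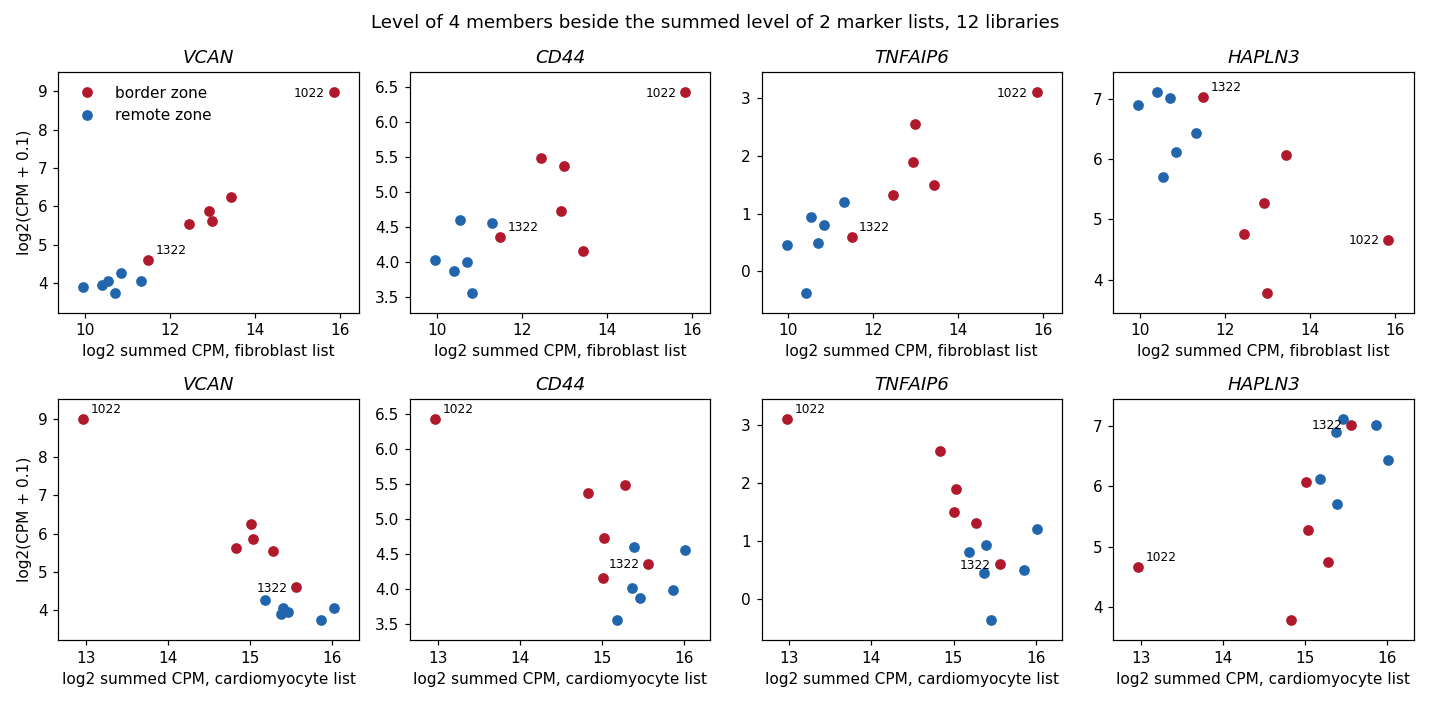
Levels of VCAN, CD44, TNFAIP6 and HAPLN3 as log2(CPM + 0.1) against the log2 summed CPM of the fibroblast markers (upper row) and of the cardiomyocyte markers (lower row), each point 1 of the 12 libraries, with the border zone libraries of animals 1022 and 1322 named. Animal 1022 stands apart in both lists, and animal 1322 lies nearest to the remote zone libraries for VCAN.

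By Pearson's r of log2 CPM over the 12 libraries, the genes most like VCAN were CYBRD1, COL5A2 and GNG12, each with r of 0.99. For CD44 they were B3GLCT (0.98), ID2 (0.97) and MCTP1 (0.97), and for TNFAIP6 PCDH18 (0.97), LIMA1 (0.96) and BMP2 (0.95). HAPLN3 was most like TSC22D4, EEPD1 and SLC48A1 (0.95, 0.95 and 0.94). For HAS3 the highest values were lower, 0.85 for NYAP1 and GGT7 and 0.83 for NSRP1. The libraries share animals and the spread between regions, and the highest of many values is high in part by choice. The border zone library of animal 1022, far above the rest for VCAN, also weighs heavily in these r values.

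Around these genes, 4 of the 4 tested genes for proteins that bind lecticans were called higher, with a median log2 fold change of 2.23, where 2.07% of all genes were called. TNC, which encodes tenascin-C, a ligand of the lectican C-terminal domain made in wound matrix, had a border zone level of 17.4 to 501 CPM and a remote zone level of 1.02 to 6.19 CPM. Its log2 fold change was 5.31 (standard error 0.95, adjusted p = 0.0253 by edgeR). FBN1, which encodes fibrillin-1 of the microfibrils, rose by 2.37, and FBLN1 and FBLN2, the fibulins, rose by 2.10 and 1.51 (adjusted p = 0.0276, 0.0338 and 0.0404 by edgeR). All 4 were higher in 6 of 6 animals and were still called without animal 1022, TNC then at 3.53, FBN1 at 1.60, FBLN1 at 1.36 and FBLN2 at 0.998. With the animal as a block their adjusted p was 0.0564 to 0.0820 by edgeR. TNR, the fifth gene of this list, had a count in 2 libraries and was not tested.

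Proteases that cut lecticans were the next list, with 2 of 7 called and a median log2 fold change of 1.19. ADAMTS4, which encodes an aggrecanase, rose by 2.70 (standard error 0.57), from 0.475 to 3.46 CPM in the remote zone and 3.01 to 23.7 CPM in the border zone. ADAMTS8, of the same family, rose by 2.29 (standard error 0.49), each with adjusted p = 0.0338 by edgeR. With the block the log2 fold changes were 2.52 and 2.28 (adjusted p = 0.0807 and 0.0564 by edgeR). Without the border zone library of animal 1022 they were 2.24 and 2.02 and still called (adjusted p = 0.0372 and 0.0439 by edgeR), and without both libraries of that animal 2.05 and 1.89 and not called (adjusted p = 0.0725 and 0.1002 by edgeR). The log2 fold changes of the other 5 genes of the list were above 0, and none passed.

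For the synthesis of the chondroitin sulfate chains, 20 of 21 genes were tested and 2 were called higher, with a median log2 fold change of 0.60. CHPF, which encodes a chondroitin polymerizing factor, was at 76.0 to 299 CPM in the border zone and 44.3 to 57.9 CPM in the remote zone, and rose by 1.43 (standard error 0.30, adjusted p = 0.0338 by edgeR). DSE, the dermatan sulfate epimerase gene, rose by 2.19 (standard error 0.52, adjusted p = 0.0489), but without the border zone library of animal 1022 it was 1.48 and not called (adjusted p = 0.0518 by edgeR). With the block the adjusted p was 0.0668 for CHPF and 0.0780 for DSE by edgeR. CHSY3, a chondroitin synthase gene named after its values were seen, had a log2 fold change of 3.002 and an adjusted p of 0.0514 by edgeR, and 1.60 without the border zone library of animal 1022 (adjusted p = 0.0644).

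Of the 7 genes that supply the sugar precursors of hyaluronan, 1 was called, and their median log2 fold change was 0.36. GFPT2, which encodes an enzyme at the entry of the hexosamine pathway, rose by 2.08 (standard error 0.44, adjusted p = 0.0338 by edgeR, 0.0798 with the block). Without the border zone library of animal 1022 it was 1.59 and still called (adjusted p = 0.0328 by edgeR), and without both libraries of that animal 1.52 and not called (adjusted p = 0.0785 by edgeR). UGDH, which makes UDP-glucuronate and was named after its values were seen, was at 0.49 (adjusted p = 0.144 by edgeR).

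The remaining lists had no call. Among 6 other hyaluronan receptors the median log2 fold change was 1.53, with 5 at an unadjusted p under 0.05 by edgeR, against 24.7% of all genes tested. The lowest p among them were those of HMMR, which also acts in cell division (1.61, adjusted p = 0.0674 by edgeR), and TLR2, an innate immune receptor (2.01, adjusted p = 0.0861). Without the border zone library of animal 1022 these were 1.39 and 1.003 (adjusted p = 0.129 and 0.184 by edgeR). The median of the 6 receptors was then 0.83, with 3 at an unadjusted p under 0.05 by edgeR. Of 6 genes of hyaluronan breakdown, 4 were tested, with a median of 0.41. CEMIP2, which encodes a cell-surface hyaluronidase, was at 1.004 (adjusted p = 0.104 by edgeR) and HYAL1, a lysosomal hyaluronidase gene, at 0.46 (adjusted p = 0.270). Of the genes listed for cross-linking with TNFAIP6, 4 of 7 were tested, with a median of 0.55. PTX3, which encodes a pentraxin, had a log2 fold change of 1.89 (adjusted p = 0.0674 by edgeR). ITIH4, of the inter-alpha-trypsin inhibitor heavy chain family, was at 0.72 (adjusted p = 0.325 by edgeR), or 0.42 without animal 1022. Whether ITIH4 is itself such a partner was not tested. ITIH3, named after its values were seen, was at 0.18 (adjusted p = 0.866 by edgeR), and ITIH1, ITIH2 and AMBP were too low to be tested. HAPLN4 was the only tested gene of the other lecticans and link proteins, at 2.55 (adjusted p = 0.0909 by edgeR), and at 1.06 without the border zone library of animal 1022 (adjusted p = 0.277 by edgeR), while BCAN had no count in any library. With the animal as a block, 0 genes of any of these 8 lists passed by edgeR, where 0.296% of all genes did. Each of the 9 called list genes also lost its call without animal 1323, 1623, 1922 or 3622 (adjusted p of 0.0631 to 0.157 by edgeR). Without the border zone library of animal 3622 alone, TNC, FBN1 and FBLN2 were still called, while FBLN1, ADAMTS4, ADAMTS8, CHPF, DSE and GFPT2 were not (adjusted p of 0.0504 to 0.0583 by edgeR).

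**Figure D5:**
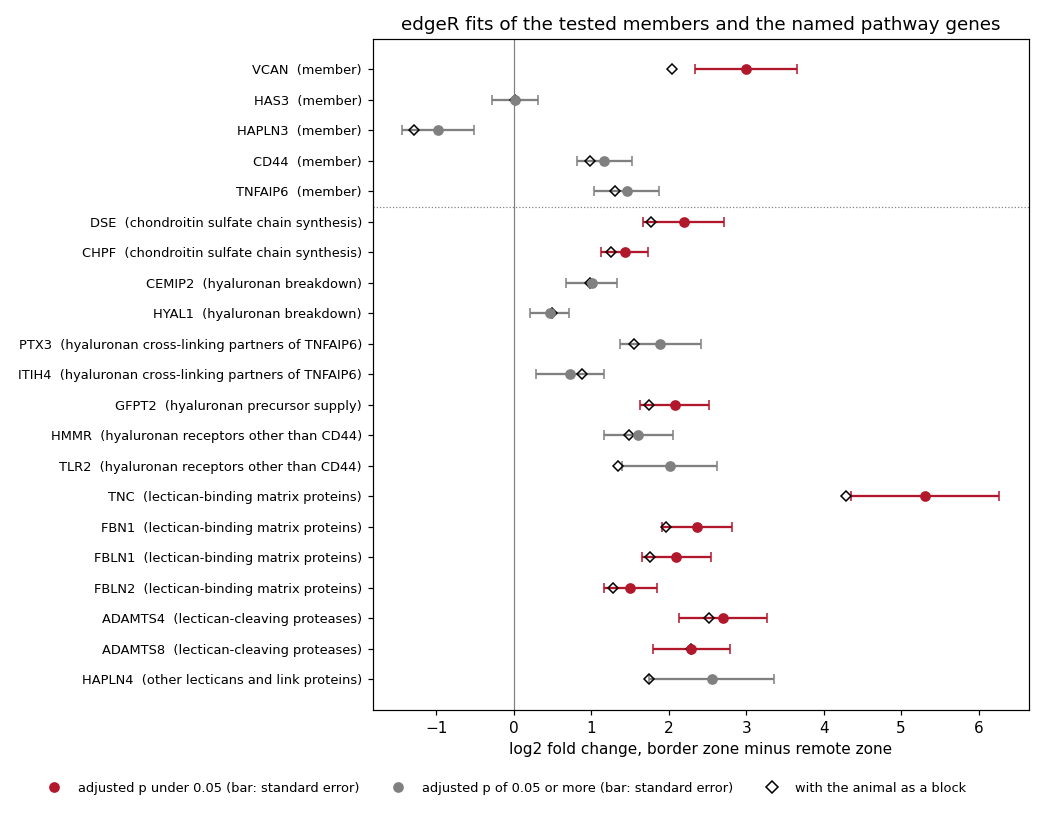
Log2 fold change of border zone minus remote zone with its standard error (filled points) from edgeR's fit of 12 libraries for the 5 tested genes of the group (above the dotted line) and the named genes of the 8 lists, red where the adjusted p was under 0.05, and the estimate with the animal as a block (open diamonds). The red points are VCAN and 9 list genes, TNC the farthest right at 5.31, and HAPLN3 is the only point well below 0.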

How the data were processed

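Per the labels and methods, total RNA was poly(A)-selected into nondirectional paired-end libraries, and the authors aligned reads to Sscrofa11.1 with STAR and counted them on Ensembl genes with featureCounts; the counting options are not given in the sources used here. The deposited values are raw counts per gene, without normalization, and PCR copies are not told apart, so a floor of 3 counts covers counting error only. The labels and the methods name different RNA extraction kits. Region and animal came from the sample titles, although the extraction text of the labels names the border zone for every sample, those titled remote included.

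From these counts, genes were filtered with filterByExpr, scaled by TMM and compared between regions by edgeR's robust quasi-likelihood test with region as the only term and Benjamini-Hochberg adjustment (R 4.3.3, edgeR 4.0.16, limma 3.58.1, with DESeq2 1.42.0 as an alternative; Python 3.11.15, pandas 2.3.3, NumPy 2.4.6). Standard errors were taken as the fold change on the log2 scale over the square root of F. Untested genes were put on a log2(CPM + 0.1) scale, with all 64 within-animal sign changes as the exact permutation test. A number names 1 animal, so it pairs its libraries, whose deviations from region means correlated with a mean r of 0.35 across genes, -0.03 in animal 1022 to 0.57 in animal 1323. No pair of libraries agreed within sampling noise (lowest chi-square 28.2 per gene). On simulated counts for this comparison (13688 genes, 200 changed), edgeR recovered 78% of 4-fold and 32% of 2-fold changes and called 3 unchanged genes, against 71%, 15% and 4 with the block, and 88%, 48% and 29 for DESeq2 (13842 genes). The simulated counts held no animal effect and no library set apart like that of animal 1022. So they cannot show what the block gains or costs in these paired libraries. Human RNA from the implants was not separated from pig RNA.

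Lengths, positions and sequences came from RefSeq on the same build; HAS2 is listed there under another symbol. A gene's start was the transcript start farthest upstream within 1000 bases of the median start. Symbols were given for 15623 identifiers, and STAB2 and 7 marker genes had none. The genes and lists were chosen with earlier results of these data known. Named beside the 10 genes were up to 4 called genes in each direction per list, or the 2 of lowest p where none was called, and the 3 genes of highest r. Alternatives were the animal as a replicate block, DESeq2's test and size factors, library totals, no filter, 10 counts in every library, other pseudocounts, each animal and 2 border zone libraries left out, and, chosen after seeing the data, the block without the filter. p-values measure the spread between animals of mixed treatment.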

Additional observations from a re-analysis of the deposited data

Results flagged for a closer look

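In each region, the highest and lowest of the 6 libraries of every gene of the group was compared with its nearest neighbour on the log2(CPM + 0.1) scale, relative to the range of the 6. Of these 20 groups of libraries 5 had 1 set apart. Chance sets apart about 1 in 20, a rate that does not hold for HAS2, where a single library with a count is set apart by construction, or for NCAN in the remote zone, where all are at 0. VCAN was at 507.9 CPM in the border zone of animal 1022, against 75.7 CPM in the next library. NCAN was at 4.03 CPM in the border zone of animal 3622, against 0.297. HAS2 was at 0.489 CPM in the border zone and 0.201 CPM in the remote zone of animal 3622, against 0 in each of the other 5 libraries of either region, which is 8 and 3 counts. HAPLN1 was at 0.484 CPM in the remote zone of animal 1322, against 0.165, a difference of 10 counts to 5.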

How the results depend on the processing

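Of the genes past the threshold, 287 by edgeR, there were 41 with the replicate block, 1719 in the DESeq2 Wald test, 1551 with library totals, 139 with no filter, 149 with at least 10 counts in every library, 156 without the border zone library of animal 3622 and 159 with the replicate block and no filter. With each animal left out there were 0 (without animal 1623 or 3622) to 519 (without animal 1322), with 3 without animal 1323, 15 without animal 1922 and 163 without animal 1022. Over all genes, the median log2 fold change was 0.32 with library totals, 0.45 in the DESeq2 test, 0.75 with no filter and 0.60 with the block and no filter. VCAN lost its call with the replicate block (2.05), with no filter (2.92) and with both (2.001), and was 1.65 to 3.23 with each animal left out. CD44 passed in the DESeq2 Wald test (1.11) and with library totals (1.55), and TNFAIP6 likewise (1.40 and 1.83). HAS3 changed sign in the DESeq2 test (-0.0395), with DESeq2 size factors (-0.0191), with no filter (-0.0403), with the block and no filter (-0.0314) and without the border zone library of animal 1022 (-0.09) or 3622 (-0.06), and was -0.17 to 0.18 with each animal left out. Of the mean within-animal differences, that of HAS3 was -0.0035 with DESeq2 size factors, and that of HAPLN3 was -1.32 with them (exact permutation test, p = 0.03125). With each animal left out these means were 1.56 to 2.41 for VCAN, 0.87 to 1.09 for HAS1, 0.44 to 1.14 for HAPLN1, 0.71 to 1.13 for CD44, 0.95 to 1.46 for TNFAIP6 and -0.16 to 0.18 for HAS3, where 5 animals allow no exact permutation p below 0.0625. CPM without the length gave median border zone synthase shares of 22.8% for HAS1 and 74.5% for HAS3. The block changed no other call of the 5 tested genes. For the named list genes, 160 values under the alternatives kept direction and call, 69 lost the call, 8 gained one and none turned direction. The losses all fell on list genes called in the main edgeR fit, and the 160 include genes that had no call to lose. The cause of these changes was not tested. Depth limits HAS1, HAS2, HAPLN1 and NCAN, which did not pass the filter.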

Other observations

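The levels of VCAN, CD44 and TNFAIP6 were also set against the summed level of the 8 fibroblast markers in the same library. VCAN had 6.07 to 8.60 CPM per 1000 CPM of this sum in the 6 border zone libraries, although its CPM differed 20.9-fold between them, and 6.51 to 14.8 in the remote zone, where its CPM differed 1.43-fold, with the ratio lower in the border zone of 4 of 6 animals. The 20.9-fold spread rests on animal 1022, at 507.9 CPM, where the other border zone libraries had 24.3 to 75.7 CPM. For CD44 the ratio was 1.46 to 7.97 next to the infarct, against 6.36 to 16.2 in the remote zone, and for TNFAIP6 0.144 to 0.707 and 0.497 to 1.27, each lower in the border zone of 6 of 6 animals. The CPM of CD44 differed 4.87-fold between the border zone libraries. The sum is mainly collagen RNA, which was itself higher in the border zone, so the ratio is a description within each library and was not tested.

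CEMIP, which encodes a secreted hyaluronan-binding protein of hyaluronan breakdown, was too low to be tested and was named after its values were seen. It was at 0.0974 to 12.0 CPM in the border zone, at most 8.44 CPM outside animal 1022, and 0 to 0.420 CPM in the remote zone, higher in 6 of 6 animals.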
